A study of Mus musculus with 12 samples.

Results

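The 10 genes described here encode factors that drive fat cell formation and proteins that take up, carry and store fatty acids. They are Cebpb, Cebpd, Pparg, Cebpa, Lpl, Cd36, Fabp4, Fabp5, Plin2 and Adipoq, and each is represented by its brightest probe set. They were chosen by name, with earlier results of these data known. All 10 were measured, among 19938 genes with a symbol of their own on the arrays. The cells were mouse embryonic fibroblasts, which are cultured connective tissue cells, and their RNA was hybridised to 12 Affymetrix arrays. Their genotype was wild type or MLL1 KO, a knockout of the histone methyltransferase MLL1 (gene Kmt2a). Both genotypes were taken 18 h (CT18) and 30 h (CT30) after serum shock, which aligns the circadian clocks of cultured cells, with 3 arrays in each of the 4 groups. The cells of all 12 arrays, wild type included, had grown in 5% newborn calf serum plus 5% fetal bovine serum and had received 50% horse serum for 2 h. The labels do not give the disrupted part of the gene, the strain, the age of the embryos or the number of lines behind each genotype. No label says that replicates were separate cultures, so the p-values below rest on array-to-array spread that may be technical.

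In the textbook order of fat cell formation, the early factors C/EBP-beta and C/EBP-delta come on first and switch on PPAR-gamma and C/EBP-alpha. These late factors maintain each other and activate genes of the fat cell. Lipoprotein lipase releases fatty acids outside the cell, CD36 takes them up, FABP4 and FABP5 carry them in the cytoplasm, perilipin 2 coats the droplets that store them, and adiponectin is secreted by mature fat cells. Embryonic fibroblasts can be turned into fat cells in culture by hormone cocktails, and no such treatment is named for these cells. CD36, FABP4, FABP5, lipoprotein lipase and perilipin 2 are also made by macrophages, and CD36 and FABP4 by endothelial cells.

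MLL1 carries a domain that binds unmethylated CG dinucleotides, and RefSeq promoter windows (GRCm38.p6) were found for 6 of the 10 genes, with 3 start sites for Pparg. The 250 bases before the start are shown for 4 genes that were lower in the knockout cells, to set start sites with few CG dinucleotides beside 1 with many. CG dinucleotides are in capitals, and each sequence reads 5′ to 3′ on the gene's own strand.
Cd36, chr5:17835897-17836146, minus strand: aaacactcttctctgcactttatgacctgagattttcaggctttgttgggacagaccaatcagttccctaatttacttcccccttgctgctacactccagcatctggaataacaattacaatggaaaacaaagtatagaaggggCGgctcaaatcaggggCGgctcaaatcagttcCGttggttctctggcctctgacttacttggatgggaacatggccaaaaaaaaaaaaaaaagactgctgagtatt
Adipoq, chr16:23146286-23146535, plus strand: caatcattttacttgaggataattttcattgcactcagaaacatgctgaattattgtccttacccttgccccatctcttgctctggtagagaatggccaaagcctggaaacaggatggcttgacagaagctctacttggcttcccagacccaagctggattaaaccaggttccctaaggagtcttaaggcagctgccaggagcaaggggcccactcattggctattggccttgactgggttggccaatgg
Pparg, most downstream start, chr6:115421816-115422065, plus strand: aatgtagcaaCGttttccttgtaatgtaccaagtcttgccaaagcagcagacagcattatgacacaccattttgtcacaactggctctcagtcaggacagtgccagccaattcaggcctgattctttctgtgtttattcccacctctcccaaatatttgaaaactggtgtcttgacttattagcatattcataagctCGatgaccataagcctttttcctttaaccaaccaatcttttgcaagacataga
Cebpa, chr7:35119043-35119292, plus strand: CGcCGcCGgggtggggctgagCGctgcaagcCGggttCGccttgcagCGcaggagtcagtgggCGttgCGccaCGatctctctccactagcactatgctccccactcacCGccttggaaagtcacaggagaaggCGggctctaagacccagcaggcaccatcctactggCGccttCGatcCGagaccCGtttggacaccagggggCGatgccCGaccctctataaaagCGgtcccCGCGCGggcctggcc
The window of Cd36 held 3 CG dinucleotides, that of Adipoq 0 and that of the most downstream Pparg start 2. RefSeq places the upstream end of Cd36 at position 17888959, so its window lies inside the gene, before an internal start. Cebpa had 22, Cebpb 41, the other Pparg starts 38 and 12, and Plin2 6. Over 32851 windows of the same length the median was 6, with 2 at the 25th percentile and 16 at the 75th. The genes lower in knockout therefore included windows at both ends of this range. A C/EBP-type motif, TTNNGNAA on either strand, was found in 3 of the 8 windows and in 36.8% of all windows. In Pparg its matches TTGCCAAA and TTTTGCAA ended 208 and 9 bases before the most downstream start, in Cd36 TTCCCTAA ended 180 bases before the start, and in Adipoq TTCCCTAA ended 74 bases before it. The PPAR-type motif, AGGNCA followed by any base and then AGGNCA again, held by 0.338% of all windows, and the clock E-box CACGTG, held by 6.02%, were each searched on both strands and matched none of the 8 windows.

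The median intensity of the arrays lay between 273.3 and 311.8. On the second principal component, which held 7.11% of the variance and parted the times, knockout 18 h replicate 1 lay at -9.34, away from -25.2 and -24.9 for the other two arrays of its group. Kmt2a had intensities of 2069 to 2824 in wild type, 1960 to 2174 in knockout at 18 h and 1338 to 1584 at 30 h, and with the disrupted part unnamed they are no check of the genotype. The fibroblast genes Col1a1 and Col1a2 were bright in every array, with at least 6095 and 6128 in wild type and 7524 and 6905 in knockout. Some other fibroblast markers differed widely. At 18 h Col3a1 had means of 3260 in wild type and 553.4 in knockout, and Col6a1 10767 and 908.6. Of 12 such markers, 4 were called higher and 5 lower in knockout at each time. Their summed intensity was 63911 to 68237 in wild type and 57477 to 60741 in knockout. Summed over 13 macrophage and blood cell markers, intensity was 2733 to 3104 in wild type, against 2777 to 4898 for knockout. Its highest values went with Cd68, at 1315, 2635 and 2964 in the knockout 18 h arrays. Their defining markers Ptprc and Adgre1 stayed at or below 172.6 and 156.8 in every array. Csf1r and Itgam, which also define them, overlapped between the genotypes, at 165.1 to 206.3 and 259.8 to 306.3 in wild type against 179.7 to 222.9 and 251.8 to 303.5 in knockout. Of these 13 markers Cd68 was called higher in knockout at 18 h (log2 0.88, adjusted p = 0.00144) and Cd14 at 30 h (log2 0.66, adjusted p = 0.000145, means of 171.0 and 282.0). Summed intensity of 11 endothelial markers was 1564 to 1776 in wild type and 1697 to 1952 in knockout, with Pecam1 at or below 146.2 and Cdh5 at or below 145.5. The endothelial receptor gene Kdr was the 1 marker of the 11 that was called. Its intensity was 290.1 ± 60.7 in the knockout 18 h arrays, beside 89.6 ± 11.1 in wild type (SD, n = 3 each, log2 1.52, adjusted p = 4.66e-08). At 30 h the log2 difference of Kdr was 0.43 (adjusted p = 0.0211). The part of these markers in the differences below was not tested. No marker of these lists was listed at 0, and a 30th percentile of 169.3 over all genes and arrays gives the scale of these dim values.

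Wild-type fibroblasts carried bright signals for several fat cell genes, and in knockout cells most of these were far lower. At 18 h 8 of the 10 genes were lower in knockout and 1 was higher, beside 25.4% and 20.1% of all genes. At 30 h the counts were again 8 and 1, beside 21% and 18.2% of all genes. Falls of at least 2-fold numbered 6 and rises 1 at each time, beside 6.25% and 5% of all genes at 18 h and 4.86% and 3.78% at 30 h. Calls are limma's two-sided moderated tests on log2(intensity + 16) with an adjusted p under 0.05, Benjamini-Hochberg over all 19938 genes, and every log2 difference and fold below is on that scale. Adding 16 makes the fold of a dim gene smaller than the plain ratio of its intensities. The genotypes differed widely, with 45.5% of all genes called in either direction at 18 h and 39.2% at 30 h. The first principal component held 86.8% of the variance and parted the genotypes. The number of lines behind each genotype is not given, so an effect of the knockout cannot be told apart from a difference between lines. Wild-type and knockout arrays were fully apart in 9 of the 10 genes at 18 h, beside 52% of all genes, and in 8 at 30 h, beside 48.8%. The median log2 difference of the 10 genes was -1.85 at 18 h and -1.85 at 30 h, and that of all genes was -0.01 and 0.03. Because the 10 genes were chosen with earlier results of these data known, these counts and medians are no test of the set. In cultures measured in bulk, fewer cells that make a transcript and less of it per cell cannot be told apart.

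**Figure D1:**
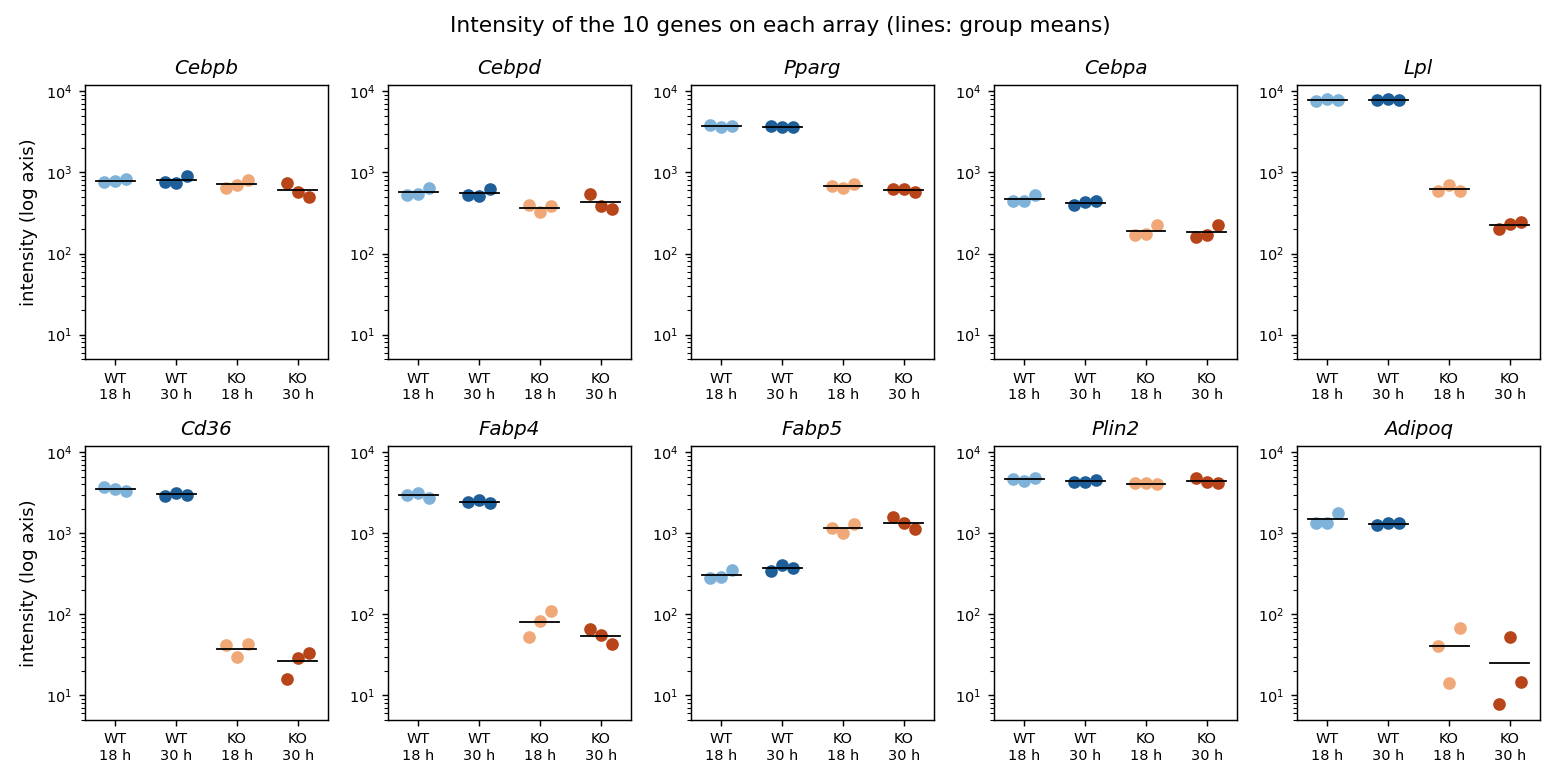
Intensity of each of the 10 genes (log axis) on every array, with 3 points per group and a line at the group mean, for wild type (WT, blue) and knockout (KO, orange) at 18 h and 30 h. Cd36, Fabp4 and Adipoq fall from 1253 or more in every wild-type array to 109.3 or less in every knockout array, Fabp5 is higher in knockout, and Lpl drops further between 18 h and 30 h within knockout.

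Of the early factors, Cebpd was lower in knockout at both times and Cebpb at 30 h. Cebpb, which responds to hormones and cytokines at the start of fat cell formation, had intensities of 768.2, 780.3 and 831.1 in wild type at 18 h and 650.1, 700.7 and 796.0 in knockout. These ranges overlapped, and the log2 difference was -0.15 with a 95% interval of -0.41 to 0.11 (adjusted p = 0.367). At 30 h the values were 756.4, 748.9 and 893.6 in wild type and 742.6, 575.8 and 501.7 in knockout, which did not overlap, though the highest knockout and lowest wild-type arrays lay close together. Cebpb was lower at 30 h by a log2 difference of -0.40 (SE 0.12, adjusted p = 0.0125). This call ended without wild-type 30 h replicate 3 (-0.32, adjusted p = 0.0787) or knockout 30 h replicate 3 (-0.28, adjusted p = 0.0882).

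Cebpd, its partner in the early step, read 529.9, 543.5 and 640.1 in wild type at 18 h and 394.7, 322.5 and 387.7 in knockout, with no overlap. Its log2 difference was -0.61 (SE 0.14, adjusted p = 0.00111). At 30 h the values were 531.8, 508.9 and 620.0 in wild type and 547.3, 389.2 and 351.5 in knockout, where the first knockout array lay among the wild-type ones. The log2 difference of -0.37 had an adjusted p of 0.038. The 30 h call ended without wild-type replicate 1 (-0.40, adjusted p = 0.0602) or 3 (-0.29, 0.172) or knockout replicate 2 (-0.32, 0.134) or 3 (-0.25, 0.2) of that time. It also ended under each of 3 other scalings, at -0.36 to -0.40 with adjusted p between 0.0559 and 0.0689, and without the intensity trend (adjusted p = 0.0506).

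The late factors fell in knockout at both times. Pparg, the nuclear receptor that directs fat cell formation, had 3837, 3630 and 3787 in wild type at 18 h and 673.7, 635.9 and 720.4 in knockout. At 30 h it had 3748, 3639 and 3589 in wild type and 627.7, 627.2 and 577.7 in knockout. Every knockout array lay far below every wild-type array, and the spread within groups was small. The log2 difference was -2.44 at 18 h and -2.55 at 30 h (SE 0.073 each, adjusted p = 6e-15 and 3.75e-15), a fall of 5.44-fold and 5.87-fold. The probe set covers the gene as a whole, so the promoter that gave the signal was not resolved.

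Cebpa, which sustains Pparg in mature fat cells, had 444.9, 444.7 and 520.3 in wild type at 18 h and 168.7, 172.0 and 223.5 in knockout. At 30 h it had 393.9, 435.2 and 439.8 in wild type and 161.8, 166.9 and 223.8 in knockout. The genotypes did not overlap at either time, and several knockout arrays lay near the dim end. In knockout Cebpa had a log2 difference of -1.26 at 18 h and -1.14 at 30 h (SE 0.13 each, adjusted p = 1.24e-07 and 5.59e-07).

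Of the uptake and carrier genes, Lpl, Cd36 and Fabp4 fell in knockout and Fabp5 rose. Lpl, the lipase that frees fatty acids from lipoproteins, was at 7561, 7970 and 7741 in wild type at 18 h and 7829, 8008 and 7730 at 30 h. In knockout it was at 586.6, 696.6 and 589.3 at 18 h and 198.3, 233.1 and 248.1 at 30 h. Wild-type ranges of the times overlapped, whereas all knockout arrays of 30 h lay below all of 18 h. Lpl fell by 3.61 on the log2 scale at 18 h (SE 0.087, adjusted p = 3.23e-16) and had a log2 difference of -5.03 at 30 h (SE 0.087, adjusted p = 1.06e-17), or 12.2-fold and 32.6-fold.

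Cd36, the membrane receptor for long-chain fatty acids, was at 3742, 3505 and 3307 in wild type at 18 h and 2896, 3154 and 2960 at 30 h. In knockout it was at 41.3, 29.4 and 42.5 at 18 h and 16.1, 29.2 and 33.3 at 30 h. Every knockout value was under 79.1, the 10th percentile of intensity over all genes and arrays, and the files hold no detection calls that would say whether such signals exceed background. The log2 difference was -6.05 at 18 h and -6.18 at 30 h (SE 0.14 each, adjusted p = 1.4e-16 and 1.38e-16), the 25th and 15th lowest of 19938 genes. At such dim values the fold depends on the number added before taking logs. It was 66.1-fold at 18 h, 91.9-fold with 1 added in place of 16 and 35.2-fold with 64. At 30 h it was 72.6-fold, 115-fold and 34.1-fold.

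The cytoplasmic carriers went opposite ways. Fabp4, a carrier typical of fat cells, was at 2991, 3142 and 2740 in wild type at 18 h and 2408, 2580 and 2386 at 30 h. In knockout it was at 52.8, 81.5 and 109.3 at 18 h and 65.6, 55.2 and 43.3 at 30 h. Its log2 difference was -4.98 at 18 h and -5.14 at 30 h (SE 0.16 each, adjusted p = 1.6e-14 and 1.14e-14), or 31.5-fold and 35.3-fold. With 64 added before taking logs it was 21.3-fold at 30 h.

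Fabp5, a carrier of wider tissue range known from skin, was at 279.2, 292.2 and 348.1 in wild type at 18 h and 344.6, 399.8 and 376.0 at 30 h. In knockout it was at 1152, 1017 and 1293 at 18 h and 1597, 1327 and 1120 at 30 h. All 6 knockout arrays exceeded all 6 wild-type arrays. The log2 difference was 1.86 at 18 h and 1.80 at 30 h (SE 0.12 each, adjusted p = 5.27e-10 and 1.01e-09), or 3.63-fold and 3.47-fold. Of the 10 genes only Fabp5 was called higher, at either time. It alone of the 10 has 2 probe sets, and the other set gave 270.6 to 382.1 in wild type and 943.7 to 1510 in knockout. The probe sets may both read the gene and its close copies.

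Plin2, the droplet coat protein found in most cells that store lipid, stayed near the same level in both genotypes. It was at 4675, 4381 and 4792 in wild type at 18 h and 4149, 4104 and 4028 in knockout, without overlap. The log2 difference of -0.17 was called narrowly (SE 0.066, adjusted p = 0.0403). That call ended under 2 of 3 other scalings (-0.15 with quantile scaling, adjusted p = 0.0646, and -0.11 with equal array medians, adjusted p = 0.371). It also ended with no intensity trend (adjusted p = 0.101) and when only the arrays compared were fitted (adjusted p = 0.0588). It ended without wild-type 18 h replicate 1 (-0.16) or 3 (-0.14), knockout 18 h replicate 2 (-0.17) or 3 (-0.16), wild-type 30 h replicate 1 or 2, or knockout 30 h replicate 2 (-0.17 each), with adjusted p up to 0.121. At 30 h Plin2 was at 4325, 4312 and 4539 in wild type and 4843, 4251 and 4104 in knockout, and these ranges overlapped. The 30 h difference had a 95% interval of -0.14 to 0.14 on the log2 scale (adjusted p = 0.994).

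Adipoq, which encodes the hormone adiponectin, was at 1346, 1320 and 1776 in wild type at 18 h and 1253, 1318 and 1331 at 30 h. In knockout it was at 40.4, 14.0 and 67.8 at 18 h and 7.87, 52.7 and 14.8 at 30 h. Knockout arrays were all under the 10th percentile of 79.1 and scattered widely, and no array of the genotypes overlapped. The log2 difference was -4.83 at 18 h and -5.15 at 30 h (SE 0.32 each, adjusted p = 4.99e-10 and 2.34e-10), or 28.4-fold and 35.6-fold. With 1 added before taking logs these were 42.0-fold and 66.4-fold, and with 64 they were 15.0-fold and 15.7-fold. The interval of each difference was wider than for any other of the 10 genes, from -5.51 to -4.15 at 18 h and from -5.83 to -4.48 at 30 h.

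**Figure D2:**
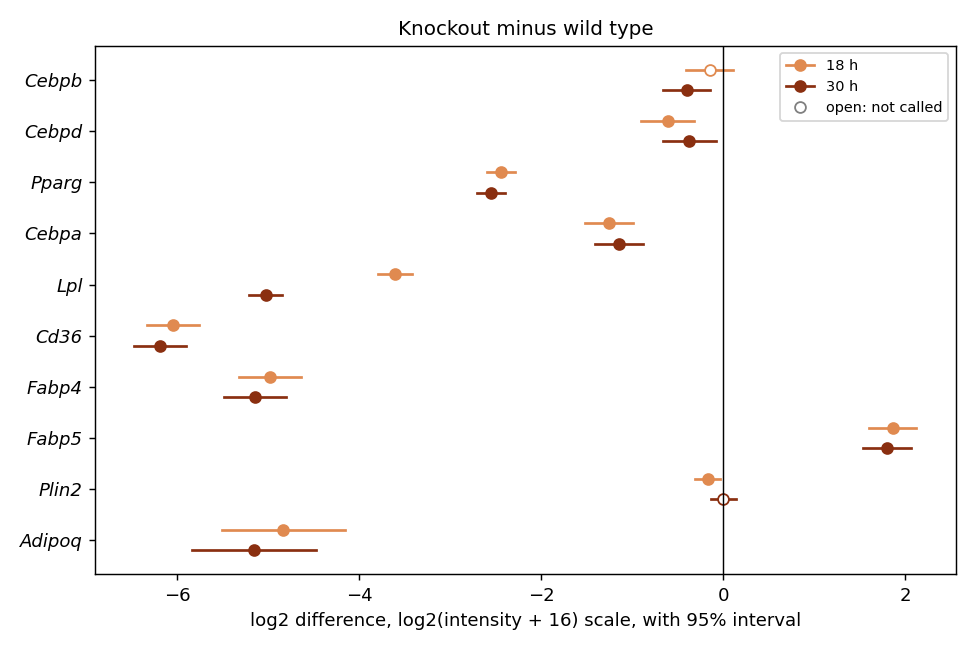
Log2 difference between knockout and wild type for each of the 10 genes at 18 h (light) and 30 h (dark), on the log2(intensity + 16) scale, with 95% intervals from limma and open points where the adjusted p was not under 0.05. Cd36 lies lowest at -6.05 and -6.18, Fabp5 alone lies above 0 beyond its interval, and the points nearest to 0 are those of Cebpb (-0.15) and Plin2 (-0.17) at 18 h and of Plin2 at 30 h.

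None of the 10 genes was called between 18 h and 30 h in wild type by limma, beside 2.35% of all genes, and 1, Fabp5, had an unadjusted p under 0.05. Fabp5 had a log2 difference of 0.28 (SE 0.12, adjusted p = 0.317). Cd36, Fabp4 and Cebpa were lower at 30 h in all 3 arrays than in any array at 18 h, with log2 differences of -0.23, -0.26 and -0.14, and adjusted p of 0.498, 0.506 and 0.69. Arrays of the 2 times did not overlap in 3 of the 10 genes, beside 21.8% of all genes.

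In knockout 1 of the 10 genes, Lpl, was called between the times, and it was lower, beside 27.3% of all genes called and 12.9% lower. Lpl fell by 1.40 on the log2 scale, or 2.64-fold (SE 0.087, adjusted p = 1.87e-08), the 43rd lowest of 19938 differences. In wild type its difference was 0.02 with an interval of -0.16 to 0.20. The difference of these time effects was itself called for Lpl, at -1.42 (SE 0.12, adjusted p = 4.91e-06), and 13.4% of all genes were called in that comparison, 6.8% below 0. Without knockout 18 h replicate 1, the array that stood apart, the fall in knockout was 1.44 (Lpl, log2 -1.44, adjusted p = 7.6e-09) and the difference of time effects -1.46 (adjusted p = 6.28e-07). Cd68 also was higher in the knockout 18 h arrays than in those of 30 h, at 685.4 to 897.0, a log2 difference of -1.42 (adjusted p = 4.77e-05). The endothelial marker Kdr fell as well, by a log2 difference of -1.05 (adjusted p = 2.55e-05), and Cd14 rose by 0.55 (adjusted p = 0.0015). The difference of the time effects was called for these markers too, at -1.09 for Cd68, -1.09 for Kdr and 0.53 for Cd14 (adjusted p = 0.017, 0.00159 and 0.0409). Their part in the fall of Lpl was not tested.

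Cd36 and Fabp4, dim in every knockout array, had log2 differences of -0.36 and -0.43 between the times in knockout, with adjusted p of 0.0567 and 0.0561. Neither was called, but several alternatives called them. Fabp4 had -0.66 without knockout 18 h replicate 1 (adjusted p = 0.000663), and Cd36 then had -0.31 (adjusted p = 0.14). The other 7 genes had differences between -0.50 for Adipoq and 0.21 for Fabp5 in knockout, and none was called in the main fit. Pparg was called with cyclic loess (-0.20, adjusted p = 0.0452) and Cebpb without knockout 30 h replicate 1 (-0.40, adjusted p = 0.0151). Adipoq was called without knockout 18 h replicate 2 (-0.90, adjusted p = 0.0377) or knockout 30 h replicate 2 (-0.94, adjusted p = 0.0187). For the 9 genes other than Lpl the difference of the time effects was not called either, with values from -0.32 for Adipoq to 0.24 for Cebpd.

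**Figure D3:**
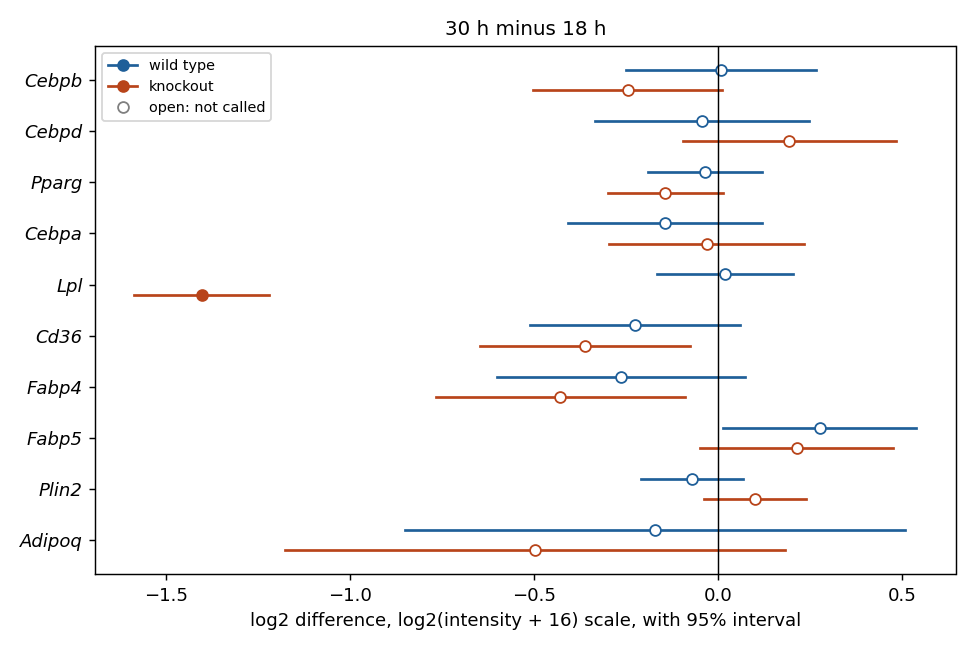
Log2 difference between 30 h and 18 h for each of the 10 genes in wild type (blue) and knockout (orange), on the log2(intensity + 16) scale, with 95% intervals and open points where not called. The Lpl difference in knockout, at -1.40, is the filled point, while in wild type it lies at 0.02.

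In the lists of further genes below, counts are read against all genes tested, of which 20.1% were called higher and 25.4% lower at 18 h, and 18.2% higher and 21% lower at 30 h. Of 4 measured genes of the C/EBP and PPAR families outside the 10, 1 was higher and 0 were lower at 18 h, and 0 were higher and 1 was lower at 30 h. Ppard, the widely expressed PPAR, measured 2396 ± 136 in wild type against 2855 ± 96.9 at 18 h (SD, n = 3 each), a log2 difference of 0.25 (limma adjusted p = 0.00406). Cebpg, a dimer partner of other C/EBP proteins, was lower at 30 h by a log2 difference of -0.53, from 1645 ± 26.1 to 1138 ± 115 (SD, n = 3 each). Of 22 measured adipogenic factors and coactivators, 13 were lower and 5 higher at 18 h, and 12 lower and 5 higher at 30 h, with list medians of -0.44 and -0.31. Ebf1, an early B-cell factor that promotes fat cell formation, went from 5303 ± 539 down to 568.4 ± 41.4 at 18 h, and its relative Ebf2 from 2600 ± 182 down to 343.2 ± 12.6 at 30 h (SD, n = 3 each). Their log2 differences were -3.18 and -2.86. Klf5, a Krüppel-like factor downstream of the early C/EBP proteins, was higher, by 2.99 at 18 h and 1.56 at 30 h. Of 19 measured inhibitors of fat cell formation, 8 were higher and 5 lower at 18 h and 7 higher and 7 lower at 30 h. The zinc finger gene Zfp521 had a log2 difference of -3.88 at 18 h and -4.20 at 30 h, while Hes1, a Notch effector, had 2.21 at 18 h and Sox9, a factor of cartilage precursors, had 2.03 at 30 h.

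Of 27 measured genes of fatty acid and lipoprotein uptake outside the 10, 9 were higher and 6 lower in knockout at 18 h, and 9 and 6 at 30 h. For all genes the shares were 20.1% higher and 25.4% lower at 18 h, and 18.2% and 21% at 30 h. Their median log2 difference was 0.17 at 18 h and 0.15 at 30 h. Vldlr, a lipoprotein receptor that binds lipoprotein lipase, went from 295.3 ± 31.3 in wild type to 4524 ± 356 in knockout at 18 h and from 206.6 ± 24.9 to 3723 ± 412 at 30 h (SD, n = 3 each), log2 differences of 3.87 and 4.07. The fatty acid transporter Slc27a1 was higher by 1.61 and 1.99. Lipg, endothelial lipase, was higher by 1.34 at 18 h, and the brain-type carrier Fabp7 by 1.25 at 30 h. Angptl4, an inhibitor of lipoprotein lipase, was lower, by log2 differences of -1.70 at 18 h and -1.08 at 30 h, with 727.1 ± 85.1 in wild type against 218.6 ± 69.8 at 18 h (SD, n = 3 each). Slc27a3 at -0.84 at 18 h, Olr1 at -0.73 at 30 h, and Cavin1 at -0.50 and -0.71 were the other named falls.

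Of 32 measured genes of lipid droplets and triglyceride metabolism, 14 were lower and 6 higher at 18 h, and 14 lower and 5 higher at 30 h, with medians of -0.13 at both times. The shares lower among all genes were 25.4% and 21%, and those higher 20.1% and 18.2%. Plin4, a perilipin abundant in fat cells, went from 2317 ± 247 to 65.0 ± 27.5 at 18 h and from 1894 ± 176 to 61.1 ± 5.52 at 30 h (SD, n = 3 each), log2 differences of -4.89 and -4.63. Aqp7, the glycerol channel of fat cells, had -2.58 at 18 h and -2.06 at 30 h. Plin1, the main droplet coat of mature fat cells, had -1.60 at 18 h, and Lpin1, a phosphatase of triglyceride synthesis, had -2.16 at 30 h. Mogat2, an acyltransferase of triglyceride synthesis, was higher by 2.70 and 1.38, and Hilpda, a hypoxia-induced droplet protein, by 2.23 and 1.65. Cidea at 0.56 at 18 h and the lipase Lipe at 0.71 at 30 h were also higher.

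Of 15 measured adipokine and mature fat cell genes, 4 were lower and 3 higher at 18 h, and 6 lower and 2 higher at 30 h. Car3, a carbonic anhydrase abundant in fat tissue, had a log2 difference of -4.35 at 18 h, from 817.7 ± 163 to 24.7 ± 4.71 (SD, n = 3 each), and -3.74 at 30 h. The adiponectin receptor gene Adipor2 was higher, by 1.63 and 1.43. Of 12 measured genes of fatty acid oxidation, 5 were lower and 0 higher at 18 h, and 5 lower and 1 higher at 30 h. Acadm, the medium-chain dehydrogenase, had -1.89 and -1.61, and Acadl, the long-chain one, was higher by 0.18 at 30 h. Of 8 measured preadipocyte markers, 3 were lower and 2 higher at 18 h, and 3 and 3 at 30 h. Pdgfra, a receptor of fat cell precursors, had -3.22 and -2.93, and Cd34 went the other way, from 572.8 ± 48.3 to 7341 ± 158 at 18 h (SD, n = 3 each, log2 3.65) and by 3.92 at 30 h. The 12 fibroblast markers split likewise, with 4 higher and 5 lower at each time, among them Dcn at 3.74 and Col6a1 at -3.54 at 18 h. These counts stand beside 45.5% of all genes called at 18 h and 39.2% at 30 h.

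**Figure D4:**
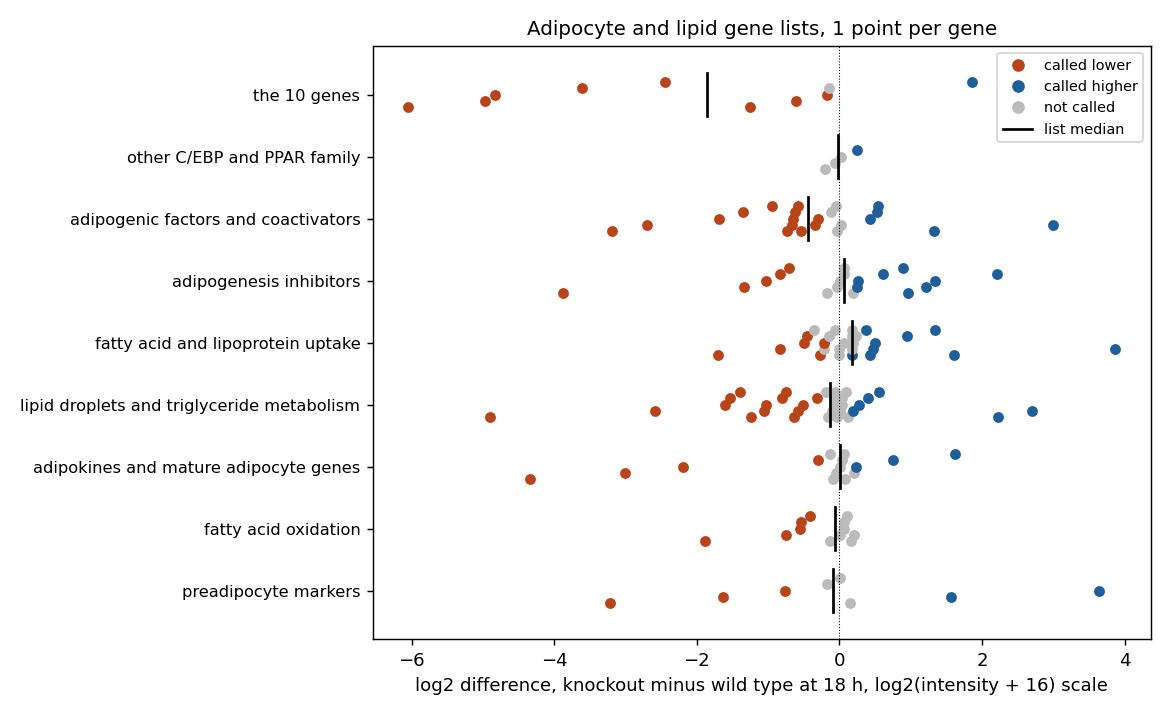
Log2 difference between knockout and wild type at 18 h for every measured gene of 8 adipocyte and lipid lists and for the 10 genes, 1 point per gene, orange where called lower, blue where called higher and grey where not called, with a bar at each list's median. The 10 genes have a median of -1.85, while the medians of the other lists lie between -0.44 and 0.17.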

How the data were processed

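Total RNA, 100 ng per sample, was measured on 12 arrays. The deposited values are linear intensity per probe set, which the submitters' processing notes credit to PLIER 2.0 and Affymetrix Expression Console 1.1. How the authors scaled arrays against each other is not given in these sources. Of 35557 probe sets, 21789 carry 1 gene symbol, 1621 several and 12147 none listed in the platform annotation. RefSeq (GRCm38.p6) supplied current symbols for 21698.

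Values were taken as log2(intensity + 16), with 1 probe set per gene, that of highest mean, and no filter on low values. The 10 genes passed a filter at the 30th percentile of mean intensity (174.8), 3 of them only through wild type (7 would pass in knockout arrays alone). The 4 group means were fitted over 12 arrays with limma 3.58.1 in R 4.3.3 (eBayes with intensity trend, 8 residual degrees of freedom). The fit was tested on simulated data. For the difference of time effects it recovered 91 of 100 simulated log2 changes of 1 but 21 of 100 smaller ones. In the other comparisons it recovered 61 to 67 of 100 such smaller changes. Only 100 genes with each size of change were simulated among 19938, whereas 13.4% of all genes were called for the difference of time effects. An adjusted p is stricter where fewer genes change, so these recoveries do not carry over to the data. How often small differences of time effects go uncalled in the data is therefore not known. The number of arrays limits the precision.

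The 10 genes and 13 gene lists (192 of 208 listed genes measured) were chosen with earlier results of these data known. Named list genes are those with the most extreme called rise and fall of a list at each time, up to 3 a direction for the PPAR, uptake and droplet lists. Same-numbered arrays of different groups had deviations correlated between -0.39 and 0.34. Differently numbered ones had a similar range, -0.35 to 0.42, and the numbers were not taken as pairs. Alternatives were other offsets, filters, scalings, eBayes settings and probe set rules, a replicate block, only the arrays compared, and each array left out. The probe set of lowest mean was added after seeing the data.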

Additional observations from a re-analysis of the deposited data

Results flagged for a closer look

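Lpl differed between the genotypes in its change with time. The difference of the time effects, knockout minus wild type, was -1.42 on the log2 scale (limma adjusted p = 4.91e-06), with Lpl at 624.2 ± 62.8 and 226.5 ± 25.5 in knockout at 18 h and 30 h, and 7757 ± 205 and 7856 ± 141 in wild type (SD, n = 3 each). All 3 knockout arrays at 30 h were lower than all 3 at 18 h, and the value lay between -1.48 and -1.33 when any array was left out.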

How the results depend on the processing

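Falls of Pparg, Cebpa, Lpl, Cd36, Fabp4 and Adipoq and the rise of Fabp5 in knockout kept direction and call under every alternative that tested them, at both times, as did the fall of Cebpd at 18 h. The calls of Cebpb at 30 h, Cebpd at 30 h and Plin2 at 18 h did not. Members called between the times in knockout numbered 2 with an offset of 1 or equal array medians, 3 with either filter or quantile scaling and 4 with cyclic loess, against 1, and 1 to 3 with an array left out. The count of all genes called between the times in wild type, 468, was 263 without the trend, 796 with only the arrays compared and 129 to 847 with an array left out, lowest without wild-type 30 h replicate 3 and highest without knockout 18 h replicate 1. For the difference of time effects, 2674 became 1731 without knockout 18 h replicate 2 and 4022 without replicate 1. With equal array medians the share of calls that were higher moved from 59.6% to 79.4% for time in wild type and from 49.3% to 27.2% for the difference of time effects, where it was 35.9% with cyclic loess. The cause of these shifts was not tested.

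Uncalled values changed sign. For the difference of time effects Cd36 was 0.047 with an offset of 64. Plin2 at 30 h was 0.011 with quantile scaling. In wild type over time, Lpl was -0.033 with quantile scaling and -0.00097 with cyclic loess, and with equal medians Cebpd was 0.029, Pparg 0.039 and Plin2 0.0040. With an array left out, Cebpb ran from -0.073 to 0.052 and Cebpd from -0.13 to 0.038 over time in wild type, Plin2 from -0.072 to 0.047 for genotype at 30 h, and Cebpa from -0.17 to 0.090 over time in knockout. The differences of time effects then ran from -0.39 to 0.039 for Fabp4, -0.19 to 0.062 for Fabp5, -0.77 to 0.017 for Adipoq, -0.26 to 0.049 for Cd36 and -0.023 to 0.23 for Cebpa. With the replicate number as a block, 9, 9, 0, 1 and 1 of the 10 genes were called in the 5 comparisons, as without it. The 50th percentile filter left out Cebpa and Adipoq, and dim signals in knockout limit the folds of Cd36, Fabp4 and Adipoq.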

Other observations

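Fabp5 and Fabp4 lie close together in the RefSeq gene order of mouse chromosome 3, with the carrier genes Pmp2 and Fabp9 between them and Fabp12 beyond Fabp4. These genes and those that flank them were chosen after the values of Fabp4 and Fabp5 were seen. Pmp2, the carrier of peripheral myelin, measured 50.6 ± 1.63 in wild type against 44.7 ± 9.19 at 18 h (SD, n = 3 each). Its log2 difference was -0.14 at 18 h and 0.08 at 30 h (limma adjusted p = 0.422 and 0.69). Fabp9, a carrier of the testis, had 65.4 ± 3.13 and 52.4 ± 3.19 at 18 h (SD, n = 3 each, log2 -0.25, limma adjusted p = 0.063). Its means at 30 h were 63.5 and 63.4 (limma adjusted p = 0.983). Both were dim in all 4 groups. Fabp12 had a log2 difference of -0.17 at 18 h (limma adjusted p = 0.236) and measured 114.1 ± 1.72 in wild type against 91.0 ± 6.22 at 30 h (SD, n = 3 each, log2 -0.28, limma adjusted p = 0.0489).

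Of the flanking genes, Pag1, a membrane adaptor beside Fabp5, was higher in knockout by 0.88 at 18 h and 0.58 at 30 h. Zfp704, the next gene, had -0.33 at 18 h and 0.03 at 30 h (limma adjusted p = 0.0269 and 0.878). Zbtb10, beyond it, had 0.02 and -0.43 (limma adjusted p = 0.905 and 0.00237). On the other side, Impa1, an inositol phosphatase beyond Fabp12, had -0.31 at 18 h and 0.17 at 30 h (limma adjusted p = 0.0137 and 0.205). Slc10a5, after it, was called at neither time, with -0.24 and 0.28 (limma adjusted p = 0.227 and 0.168).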
